A study of Mus musculus with 8 samples.

Results

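The livers of 4 male mice homozygous for a deletion of the neuropeptide Y gene (genotype Npy-/-, called KO) were compared with those of 4 male mice carrying the intact gene (Npy+/+, called WT). The comparison takes in every array of the series, 8 of 8, and sets genotype against genotype with feeding as a covariate. Both genotypes shared a mixed strain background, made up of 129S-Npytm1Rpa/J together with 129S6/SvEvTac. The 4 groups were KO mice fed ad libitum (KO-AL), KO mice on dietary restriction (KO-DR), WT mice fed ad libitum (WT-AL) and WT mice on dietary restriction (WT-DR), with 2 mice in each. Feeding groups were formed at 12 weeks of age, and the restricted mice received 70% of the mean daily intake of freely fed mice. The age at which livers were taken was not stated in the sources used here. Each liver was hybridised to its own one-colour CodeLink Mouse Whole Genome Bioarray, and the labels call the arrays of a group separate mice, so replicate error here is the spread between mice.

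Neuropeptide Y is a small secreted peptide made by hypothalamic neurons that respond to fasting, and by sympathetic nerves, including those that reach the liver. It acts through a family of G-protein-coupled receptors and is best known for driving food intake. The Npy-/- genotype lacks the peptide in the whole animal, so the liver of these mice was measured in the absence of the peptide in brain and nerves alike. The comparison asks which liver transcripts differ when the peptide is missing, with and without a restricted diet.

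The deposited table numbers its probes, and no file links a number to a gene. Transcripts are therefore given by probe number. Neither the level of Npy itself nor the liver's own marker genes could be read, so the genotype and tissue labels were not checked against expression. The probes described one by one are those with the smallest p, so a difference beyond replicate error is largely built into their choice, and their intervals are not corrected for it. For probes chosen in the averaged comparison, the choice also favours a like difference in both diets and genotypes that do not overlap.

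The table holds 36227 probes, of which 36092 had a value on all 8 arrays. After quantile normalization, 25264 probes with a mean log2 intensity above the 30th percentile were tested. The median deposited intensity of an array was 67.9 to 96.1 in KO and 78.9 to 92.6 in WT. The mean difference of log2 medians, KO minus WT, was -0.13, with SDs of 0.21 in KO and 0.10 in WT (n = 4 each, two-sided exact permutation p = 0.314, smallest possible 0.0286). The permutation took no account of feeding. In DR mice both KO arrays lay below both WT arrays, with log2 medians of 6.30 and 6.09 against 6.53 and 6.48. In AL mice the genotypes overlapped, with 6.59 and 6.26 in KO against 6.42 and 6.30 in WT. The 2 arrays least like the others were KO-DR replicate 2, with a mean correlation of 0.957 with the other 7 arrays, and WT-AL replicate 2, with 0.952, against 0.964 to 0.968 for the remaining 6. KO-DR replicate 2 also had the lowest median intensity, 67.9, and the highest share of probes at the floor, 7.70%. Values without each of them are given beside several of the results they moved.

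Taken over all tested probes and all 8 arrays, genotype did not set the arrays apart. Pairs of a KO and a WT array on the same diet correlated at a mean r of 0.965 across probes (8 pairs, 0.951 to 0.975). Pairs of the same genotype on different diets had a mean of 0.963 (8 pairs, 0.946 to 0.977), and the 2 mice of one group had a mean of 0.965 (4 pairs, 0.951 to 0.974). Livers of different genotype were thus about as alike as the 2 livers of one group. The within-group spread of a typical probe was also close in the 2 genotypes, with a median pooled SD of 0.20 log2 units in KO and 0.20 in WT. In a principal component analysis KO and WT arrays overlapped on each of the 7 components. The nearest to a separation was component 3, with 16.1% of the variance, where KO arrays scored between -4.05 and 34.8 and WT arrays between -26.5 and -2.57. There the KO-AL mice lay farthest from WT, at 34.8 and 27.9, while the KO-DR mice scored -4.05 and 7.20. Component 1, with 27.5% of the variance, had KO-DR replicate 2 at 37.9 and WT-AL replicate 2 at -59.9 as its extremes, a single mouse of each genotype. Leaving out mice changed this picture, in an alternative chosen after the data were seen. With 1 mouse left out, the genotypes were free of overlap on 1 component in 4 of 8 settings and on none in the other 4. Without WT-AL replicate 2 it was component 2, with 21.2% of the variance, and without KO-DR replicate 2 there was none. Without both it was component 1, with 28.1%. Fewer mice leave less room for overlap, so these settings are not on equal terms with the full set. The mean r between genotypes on the same diet was 0.968 without WT-AL replicate 2, beside 0.969 for the 2 mice of one group, and 0.965 beside 0.965 without KO-DR replicate 2.

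**Figure D1:**
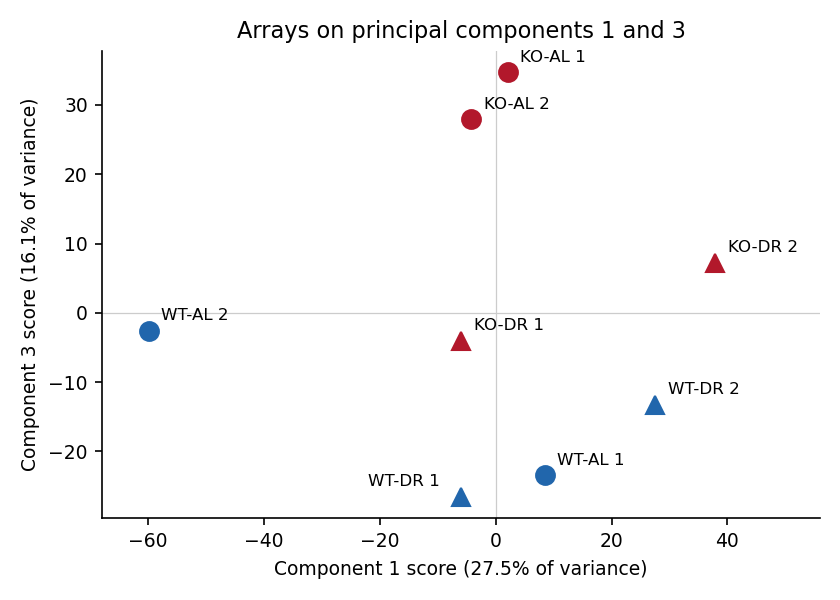
Scores of the 8 arrays on principal component 1 (horizontal, 27.5% of variance) and component 3 (vertical, 16.1%), with KO in red, WT in blue, AL as circles and DR as triangles. KO arrays lie toward the top, and KO-DR replicate 1 at -4.05 overlaps with WT-AL replicate 2 at -2.57 on component 3.

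For the comparison averaged over feeding, 3 probes stood out, all lower in KO, and none passed the threshold. They are probes 24573, 13554 and 23721, with mean levels 3.66-fold, 4.46-fold and 2.87-fold lower in KO. In limma's moderated test, adjusted by the Benjamini-Hochberg method, 0 of 25264 probes (0%) had an adjusted p under 0.05. The 3 probes shared the smallest adjusted p, 0.0578, and were the only ones under 0.10 (0.0119% of tested probes). The next probe had 0.585. The third of them, probe 23721, was named after its values were seen.

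Probe 24573 was a bright probe, at the 79.3rd percentile of mean level among tested probes. Its normalized log2 level was 7.36 and 7.93 in the KO-AL mice, 8.14 and 8.60 in the KO-DR mice, 9.78 and 9.57 in the WT-AL mice, and 10.16 and 10.02 in the WT-DR mice. The highest KO mouse lay 0.96 log2 units below the lowest WT mouse, so the genotypes did not overlap. The deposited intensities, before the normalization applied here, separated too, with 196 to 328 in KO and 788 to 1162 in WT. The mean was 8.01 ± 0.52 in KO and 9.88 ± 0.26 in WT (SD, n = 4 each), a log2 difference of -1.87 (SE 0.18, 95% confidence interval -2.28 to -1.47, adjusted p = 0.0578 by limma). The difference was present in both diets, at -2.03 in AL mice and -1.72 in DR mice, which the choice of the probe favours. The 2 values differed by 0.31 (95% confidence interval -0.53 to 1.16).

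Probe 13554 showed the same pattern at a lower level, near the 64.8th percentile. It measured 6.69 and 6.91 in the KO-AL mice, 6.80 and 7.44 in the KO-DR mice, 8.99 and 8.65 in the WT-AL mice, and 9.10 and 9.73 in the WT-DR mice. All 4 KO mice were below all 4 WT mice, with a gap of 1.21 log2 units, and the deposited intensities were 105 to 142 in KO and 406 to 887 in WT. The mean was 6.96 ± 0.33 in KO and 9.11 ± 0.45 in WT (SD, n = 4 each), a log2 difference of -2.16 (SE 0.20, 95% confidence interval -2.62 to -1.69, adjusted p = 0.0578 by limma). By diet it was -2.02 in AL mice and -2.29 in DR mice.

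Probe 23721 had a level near the middle of the tested probes, at the 52.1st percentile. It measured 6.46 and 6.42 in the KO-AL mice, 6.79 and 6.84 in the KO-DR mice, 7.61 and 8.22 in the WT-AL mice, and 8.28 and 8.49 in the WT-DR mice. The KO mice again lay below every WT mouse, and the 2 KO mice of a diet were nearly equal. The log2 difference was -1.52 (SE 0.15, 95% confidence interval -1.87 to -1.17, adjusted p = 0.0578 by limma), and it measured -1.48 among AL and -1.57 among DR mice. The lowest WT value was that of WT-AL replicate 1. Without that mouse the difference was -1.66 and the adjusted p by limma was 0.0823.

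The call on these 3 probes changed with the processing. Probes 24573 and 13554 passed in 6 of 19 alternatives and probe 23721 in 4 of 19. The 19 include 8 fits with 1 mouse left out. With a prior variance that followed probe brightness, the adjusted p by limma was 0.00342 for probes 24573 and 13554 and 0.00838 for probe 23721, and no other probe passed. In that setting each mouse was also left out in turn, an alternative chosen after the data were seen. Probes 24573 and 13554 then passed in 8 of 8 fits (adjusted p by limma up to 0.0290 and 0.0256), and probe 23721 in 4 of 8. With the constant prior, none of the 3 passed without any 1 mouse. Their log2 differences then stayed between -2.00 and -1.73 for probe 24573, between -2.26 and -2.00 for probe 13554, and between -1.66 and -1.41 for probe 23721. In these fits the adjusted p by limma ran from 0.115 to 0.387 for probe 24573 and from 0.0851 to 0.427 for probe 13554. For probe 23721 it ran from 0.0823 to 0.427. The smallest adjusted p by limma of any probe was 0.165 without KO-DR replicate 2 and 0.0851 without WT-AL replicate 2.

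With all 8 mice, no probe higher in KO came as near the threshold. Probe 1151, at the 86.9th percentile of mean level, had the smallest p among them. It measured 10.30 and 10.55 in the KO-AL mice, 9.61 and 9.74 in the KO-DR mice, 9.65 and 9.68 in the WT-AL mice, and 8.84 and 9.02 in the WT-DR mice. KO exceeded WT within each diet, while KO-DR mice lay at the level of WT-AL mice, so the genotypes overlapped when diets were pooled. The log2 difference was 0.76 (SE 0.11, 95% confidence interval 0.49 to 1.02, adjusted p = 0.585 by limma), a 1.69-fold difference that was 0.76 in AL mice and 0.75 in DR mice. With the prior variance that followed probe brightness, its adjusted p by limma was 0.0907. Probe 3453 was among the dimmest 1% of tested probes. It measured 5.54 and 5.41 in the KO-AL mice, 5.43 and 5.56 in the KO-DR mice, 4.32 and 4.95 in the WT-AL mice, and 4.27 and 4.18 in the WT-DR mice. Every KO mouse was above every WT mouse, with deposited intensities of 36.7 to 54.7 in KO and 19.0 to 29.5 in WT. Its WT mean, 4.43, lay below the lowest mean level of a tested probe, 4.90. The probe thus passed the filter only through its KO values, with a mean of 5.49. Its log2 difference was 1.06 (SE 0.17, adjusted p by limma 0.585, and 0.608 with the prior variance that followed probe brightness). It was 0.51 with a pseudocount of 32 in place of the floor, and 1.23 without WT-AL replicate 2 (adjusted p = 0.0851 by limma).

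**Figure D2:**
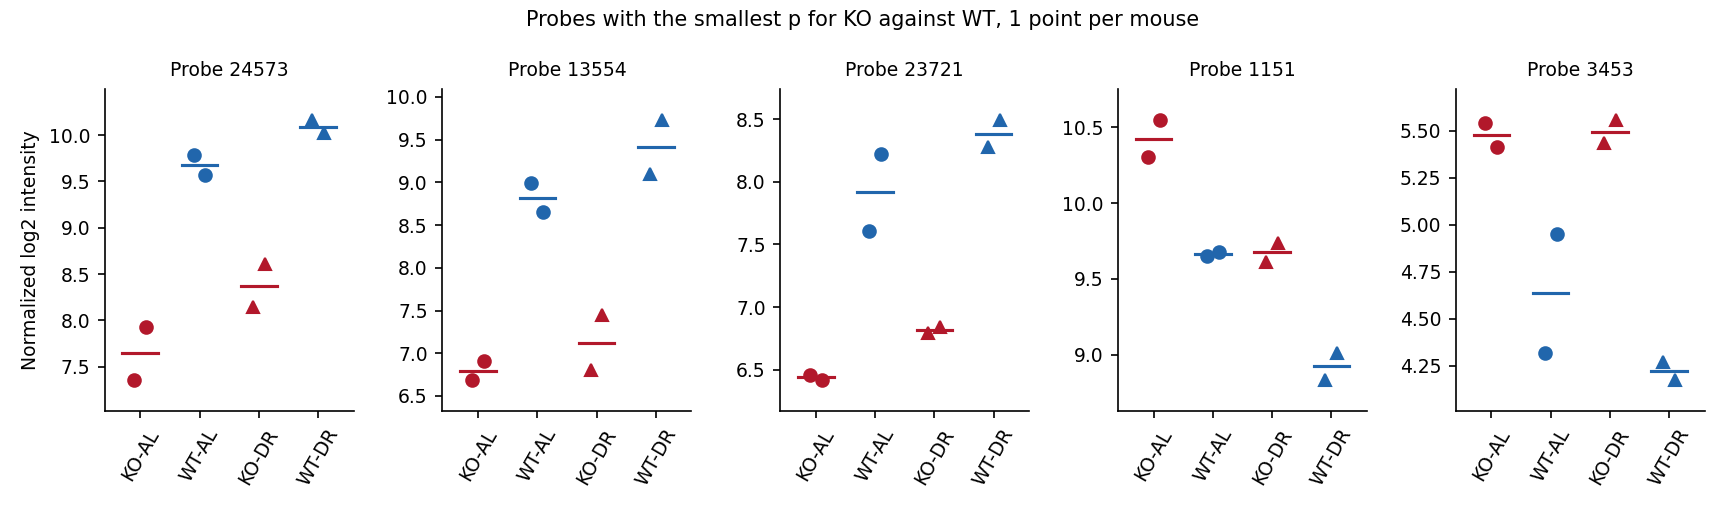
Normalized log2 intensity of 5 probes in every mouse, 1 panel per probe with its own vertical scale, KO in red left of WT in blue for each diet, AL as circles, DR as triangles and bars at the mean of 2 mice. Probes 24573, 13554 and 23721 are lower in every KO mouse, probe 3453 is higher in every KO mouse, and probe 1151 is higher in KO within each diet.

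Below the threshold, few differences reached 2-fold. An unadjusted p under 0.05 by limma was reached by 1705 probes (6.75%), of which 903 (3.57%) were higher and 802 (3.17%) lower in KO. This split belongs to the normalized values. In the intensities as deposited, 147 of 1618 such probes were higher and 1471 lower in KO, and the median probe was shifted by -0.10. The number was 1085 without WT-AL replicate 1 (510 higher, 575 lower) and 2165 without WT-AL replicate 2 (1357 higher, 808 lower). It was 2342 without KO-DR replicate 1 (975 higher, 1367 lower), 1524 without KO-DR replicate 2 (738 higher, 786 lower) and 1992 without WT-DR replicate 2 (850 higher, 1142 lower). Which direction held more probes thus depended on the mice included. KO and WT arrays did not overlap for 856 probes (3.39%), with KO above WT in 481 (1.9%) and KO below WT in 375 (1.48%). Averaged differences of at least 2-fold were found for 103 probes (0.408%), 50 of them higher and 53 lower in KO. For 34 of these (0.135% of tested probes) the 4 KO and 4 WT mice did not overlap, 12 with KO above and 22 with KO below. In the rest at least 1 mouse crossed into the range of the other genotype. With 1 mouse left out, the probes at 2-fold or more numbered 115 to 223 of the 25264 tested, with 140 without WT-AL replicate 2 and 144 without KO-DR replicate 2. Probes without overlap, whatever the size of the difference, numbered 1176 to 2227 of the 25264 tested. They numbered 2227 without WT-AL replicate 2 (1316 above, 911 below) and 1771 without KO-DR replicate 2 (789 above, 982 below). Both numbers rise with fewer mice in part by construction.

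**Figure D3:**
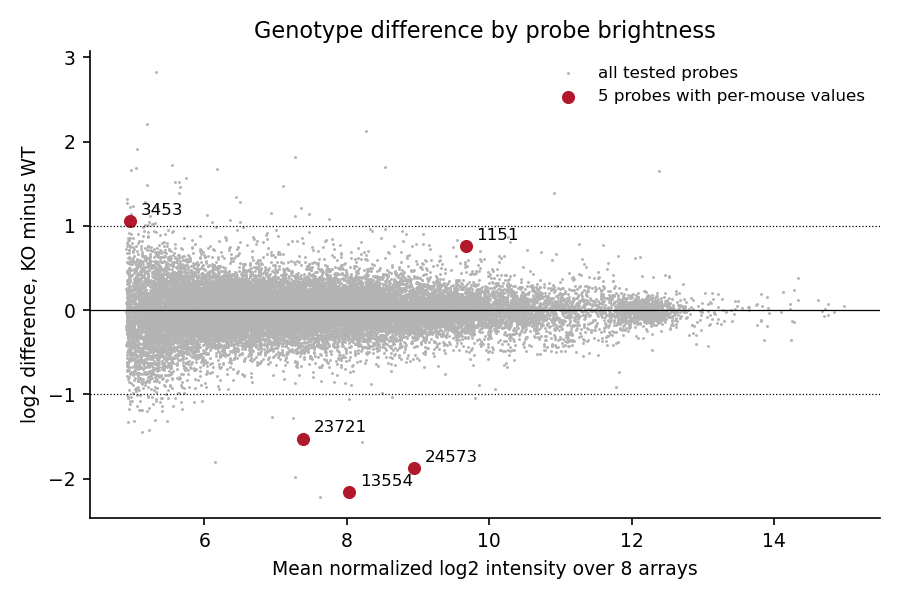
Averaged log2 difference, KO minus WT (vertical), of the 25264 tested probes against their mean normalized log2 intensity over 8 arrays (horizontal), with dotted lines at 2-fold and the 5 probes given per mouse in red. The spread narrows with brightness, and probes 24573, 13554 and 23721 lie below the band of probes of like brightness.

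Dim probes supplied most of the large differences. Of the 103 probes at 2-fold or more, 72 were in the dimmest 20% of tested probes and 4 in the brightest. The median standard error was 0.24 log2 units in the dimmest 20% and 0.13 in the brightest, and the median absolute difference was 0.23 and 0.10. An unadjusted p under 0.05 was reached by 9.02% of the probes in the dimmest 20% and by 5.28% of those in the brightest. With an unadjusted p below 0.01 plus a 1.5-fold difference or more, 173 probes were listed (0.685%), 105 higher and 68 lower in KO, with a median absolute log2 difference of 0.73. The list held 245 probes without WT-AL replicate 2, 203 without KO-DR replicate 2, and 138 to 350 with any 1 mouse left out. Of the 173 listed with no mouse left out, 72 were in the dimmest 20% (40 higher, 32 lower) and 28 in the brightest (21 higher, 7 lower).

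The intervals also bound the size of the differences. For 22670 probes (89.7%) the 95% confidence interval of the averaged difference lay within 2-fold in both directions. This share was 69.1% in the dimmest 20% and 98.0% in the brightest. The median standard error over all tested probes was 0.16 log2 units and the median absolute difference 0.14, a 1.10-fold difference. For 16 of the 25264 tested probes the interval, uncorrected for the number of probes, lay wholly beyond 1.5-fold. These limits hold relative to the typical probe, since quantile normalization removes any shift common to all transcripts.

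Within a single diet, with 2 KO mice against 2 WT mice, no probe passed. In AL mice 0 probes (0%) had an adjusted p under 0.05 by limma, the smallest being 0.366, and 1950 (7.72%) had an unadjusted p under 0.05, 1163 (4.6%) higher and 787 (3.12%) lower in KO. In DR mice 0 probes (0%) passed, the smallest adjusted p by limma being 0.388, and 908 (3.59%) had an unadjusted p under 0.05, 498 (1.97%) higher and 410 (1.62%) lower in KO. With an unadjusted p below 0.01 plus a 1.5-fold difference or more, 475 (1.88%) were listed in AL mice and 161 (0.637%) in DR mice. The numbers passing, and those with an unadjusted p under 0.05, moved with single mice. Among AL mice 105 probes passed once WT-AL replicate 1 was left out, 103 of them higher in KO. The only WT-AL array in that fit is WT-AL replicate 2, the array least like the others. By contrast, without WT-AL replicate 2 none did and 1806 had an unadjusted p under 0.05. Without KO-AL replicate 1 the unadjusted number in AL mice was 1272. Among DR mice 2 probes passed when WT-DR replicate 1 was left out and 1 when WT-DR replicate 2 was, and the unadjusted number ran from 598 without WT-DR replicate 1 to 1850 without KO-DR replicate 1, with 800 and no probe passing without KO-DR replicate 2. The listed probes numbered 322 to 952 in AL mice and 128 to 495 in DR mice with 1 mouse left out. In the intensities as deposited the unadjusted number in DR mice was 2147, of which 64 were higher and 2083 lower in KO, with the median probe shifted by -0.28. With no filter on dim probes it was 1576 of 36092.

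The AL and DR comparisons share no array and can be set side by side. A difference of at least 2-fold was measured for 480 probes (1.9%) in AL mice and 309 (1.22%) in DR mice. The lists had 27 probes in common, which is 5.63% of the AL list and 8.74% of the DR list. Of these, 14 were higher and 9 lower in KO in both diets, and 4 had opposite directions. Probes 24573, 13554 and 23721 are among the 9, which their choice for the averaged difference favours. Over all 25264 probes 54.4% had the same sign in both diets, and the log2 differences had a Pearson r of 0.13 and a Spearman rho of 0.12. With 1 mouse left out, r lay between -0.017 without WT-AL replicate 1 and 0.24 without WT-AL replicate 2, and the share with the same sign between 49.0% and 59.4%. Without KO-DR replicate 2, r was 0.040. The probes at 2-fold in both diets then numbered 26 to 54, with 40 without WT-AL replicate 2 and 44 without KO-DR replicate 2. These describe probes measured on the same arrays, which are not independent replicates.

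**Figure D4:**
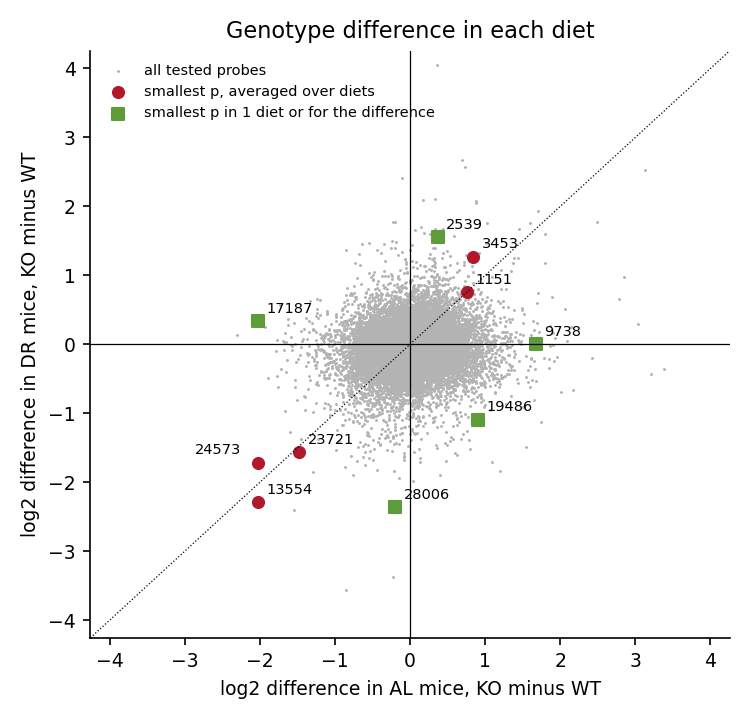
Log2 difference, KO minus WT, in AL mice (horizontal) and in DR mice (vertical) for the 25264 tested probes in grey, with a dotted line where both are equal. Probes chosen for the averaged comparison (red circles) lie near that line, and those chosen within a diet or for the difference between diets (green squares) lie away from it. Both positions are favoured by how the probes were chosen.

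The probes with the smallest p within one diet differed from those of the averaged comparison in that the other diet showed less of the difference, or none. Their choice within one diet favours this. Probe 28006 was the one nearest the threshold in DR mice. It measured 6.65 and 6.51 in the KO-DR mice and 8.74 and 9.14 in the WT-DR mice, against 6.89 and 6.40 in the KO-AL mice and 6.91 and 6.77 in the WT-AL mice. Only the WT-DR mice were high, while KO mice on either diet were at the level of WT-AL mice. The log2 difference was -2.36 in DR mice (SE 0.23, 95% confidence interval -2.90 to -1.82, adjusted p = 0.388 by limma) and -0.20 in AL mice (95% confidence interval -0.73 to 0.34).

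Probe 2539 was higher in KO in DR mice. It measured 9.15 and 9.01 in the KO-DR mice and 7.39 and 7.65 in the WT-DR mice, against 8.89 and 9.04 in the KO-AL mice and 8.72 and 8.46 in the WT-AL mice. Here too the WT-DR mice stood apart, on the low side, and the KO level was nearly the same on both diets. All KO mice were nevertheless above all WT mice, with a gap of 0.16 log2 units between the genotypes. KO minus WT was 1.56 on the log2 scale in DR mice (SE 0.18, adjusted p = 0.732 by limma) and 0.37 in AL mice (95% confidence interval -0.062 to 0.80).

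In AL mice the lower probe with the smallest p was 17187, among the dimmest 5% of tested probes. It measured 3.55 and 3.95 in the KO-AL mice and 5.67 and 5.88 in the WT-AL mice, against 5.64 and 5.88 in the KO-DR mice and 5.50 and 5.37 in the WT-DR mice. The KO-AL mice alone were low, at deposited intensities of 13.3 and 14.3 against 45.6 or more in the other 6 mice. This gave a log2 difference of -2.03 in AL mice (SE 0.20, adjusted p = 0.366 by limma) and 0.33 in DR mice. With a pseudocount of 32 in place of the floor the AL value was -0.93. Probe 9738 was the higher one, with 6.53 and 6.26 in the KO-AL mice and 4.52 and 4.91 in the WT-AL mice, against 6.20 and 5.97 in the KO-DR mice and 6.18 and 5.99 in the WT-DR mice. In this case the WT-AL mice alone were low. This gave a log2 difference of 1.68 in AL mice (SE 0.21, adjusted p = 0.366 by limma) and -0.0022 in DR mice. With that pseudocount of 32 the AL value was 0.99.

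**Figure D5:**
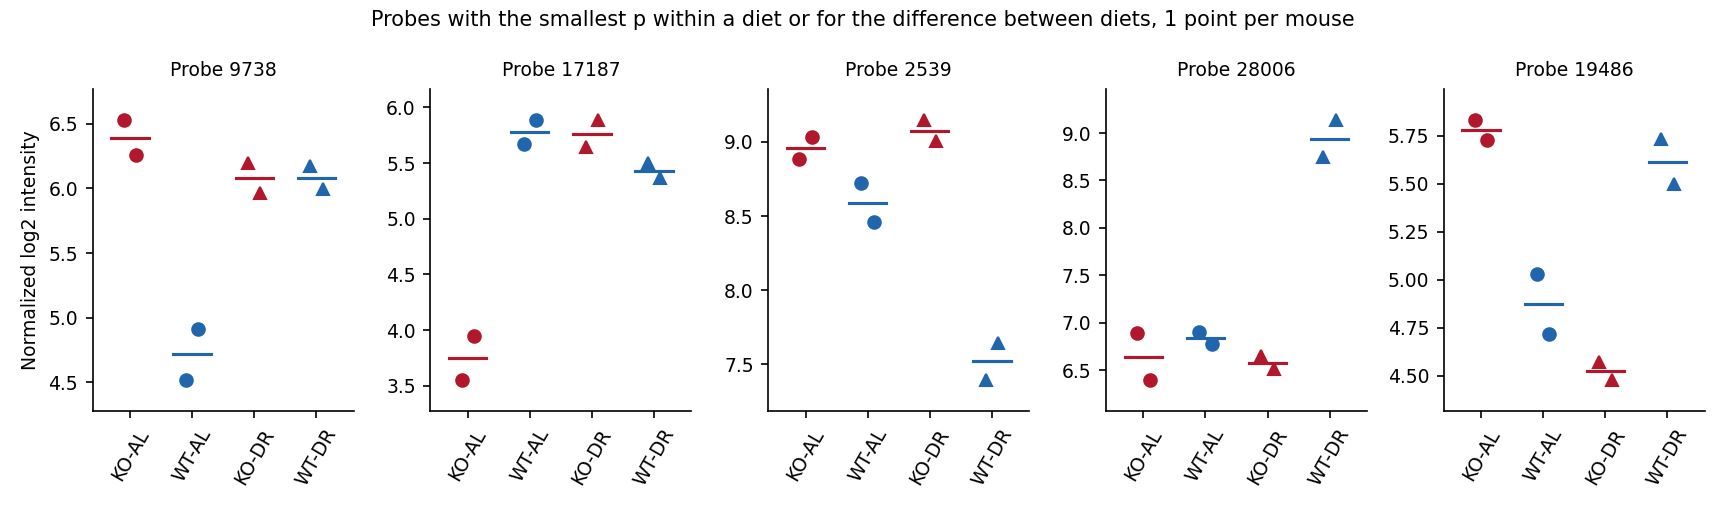
Normalized log2 intensity of 5 probes in every mouse, 1 panel per probe with its own vertical scale, KO in red left of WT in blue for each diet, AL as circles, DR as triangles and bars at the mean of 2 mice. In probes 9738, 17187, 2539 and 28006 one group stands apart from the other 3, and in probe 19486 the order of KO and WT is opposite in the 2 diets.

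Whether the genotype difference itself depended on diet was tested as the difference in DR mice minus that in AL mice. By limma 0 probes (0%) had an adjusted p under 0.05, the smallest was 0.971, and 1200 (4.75%) had an unadjusted p under 0.05, 410 (1.62%) positive and 790 (3.13%) negative. With an unadjusted p below 0.01 plus a 1.5-fold difference or more, 219 (0.867%) were listed. Without WT-AL replicate 1, which leaves WT-AL replicate 2 as the only WT-AL array, 6 probes passed, all negative, and 2285 had an unadjusted p under 0.05, while without WT-AL replicate 2 none passed and 962 had one. In the intensities as deposited 2118 had one, 33 positive and 2085 negative, with the median probe shifted by -0.33, and with no filter on dim probes 1854 of 36092 did. The median standard error was 0.32 log2 units, and the 95% confidence interval lay within 2-fold for 46.4% of probes, so the precision for this quantity was lower than for the averaged difference. The positive value with the smallest p was that of probe 17187, 2.36 (SE 0.28, adjusted p = 0.971 by limma). The negative one was that of probe 19486, -2.00 (SE 0.26, adjusted p = 0.971 by limma), also among the dimmest 5%. With a pseudocount of 32 these were 1.13 for probe 17187 and -1.06 for probe 19486. Probe 19486 measured 5.83 and 5.73 in the KO-AL mice and 5.03 and 4.72 in the WT-AL mice, and then 4.57 and 4.48 in the KO-DR mice and 5.74 and 5.50 in the WT-DR mice. KO was above WT in AL mice and below it in DR mice, with log2 differences of 0.91 and -1.09. For probe 28006 the value was -2.16 (95% confidence interval -2.92 to -1.41, with an adjusted p by limma of 0.971).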

How the data were processed

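Biotin-labelled cRNA from liver total RNA was hybridised to the arrays for 18 hours, per the labels' protocols. The deposited table holds 1 linear intensity per probe and array. Neither background correction nor normalization by the authors was stated in the sources used here. Among probes with a value on all arrays, 0.94% to 1.60% of the values of an array were below 0. Their origin was not tested. The labels describe spot quality tags, which were not used here, so detection and saturation were not judged per probe.

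The table's code for missing values was read as such. Values below 7 were set to 7, log2 was taken and the arrays were quantile normalized. Probes complete on 8 arrays with a mean above the 30th percentile were tested. The averaged comparison was fitted in limma 3.58.1 (R 4.3.3) with genotype and feeding as terms, leaving 5 residual degrees of freedom. Comparisons by diet used 1 mean per group, leaving 4. P-values are two-sided and adjusted by Benjamini-Hochberg over the 25264 probes, with a threshold of 0.05. Array medians were compared by an exact permutation test that took no account of feeding. The fit was tested on simulated data. Figures were drawn with matplotlib 3.10.9. Precision is limited by the number of arrays.

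The comparison and its settings were chosen with earlier results of these data known. Named probes are the 2 with the smallest p per direction in the averaged comparison and the 1 per direction in each of the other 3, plus probe 23721. Gene lists and cell type markers had been written down but could not be applied without gene names. Alternatives covered normalization, the filter, the floor, the prior variance, the model terms, a replicate block, the threshold and leaving out each mouse. All 8 columns of the table were mapped to a mouse by their names.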

Additional observations from a re-analysis of the deposited data

Results flagged for a closer look

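WT-AL replicate 2 was apart from the other 3 WT arrays in its mean correlation with the remaining 7 arrays, 0.952 against 0.965 to 0.968. The gap made up 0.851 of the range of the 4 WT values, above Dixon's 95% critical value. Sets of 4 KO or 4 WT values were examined 24 times in this way, over array medians, mean correlations and the named probes, and chance flags about 1 in 20. Its deposited median intensity was 78.9, the lowest of the WT arrays, and the medians of all 4 WT arrays lay within the range of the KO arrays.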

How the results depend on the processing

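Each of the 5 probes given for the averaged comparison kept its direction in 134 of 134 fits, those without a mouse under the brightness trend included, and the stricter filter removes probe 3453. Probes chosen for the smallest p on the same arrays leave little room for a change of direction. Changes of the filter, prior, block or model terms left their log2 differences the same. The averaged comparison called 0 probes. It called 2 with no normalization, 2 with median centring, and 3 each with the filter at the 50th percentile, a pseudocount of 32, the brightness trend, and trend with robust prior, all lower in KO, and 0 with no filter, a floor of 16, no feeding covariate or 4 group means. The smallest adjusted p by limma in these fits lay between 0.00145 and 0.233. Replicate numbers were not treated as pairs, since deviations of same-numbered mice correlated between -0.25 and 0.28 over the 6 pairs of groups. With the replicate block the averaged comparison called 0 (smallest adjusted p 0.118 by limma), and the block changed no other call. Trend with robust prior called 1 probe in DR mice. With an unadjusted p below 0.01 plus a 1.5-fold difference the numbers were 173 averaged, 475 in AL mice, 161 in DR mice and 219 for the difference between diets. Leaving out each mouse gave 0 to 0 averaged (2 to 5 with the trend, an alternative added after the data were seen), 0 to 105 in AL mice, 0 to 2 in DR mice, 0 to 6 for the difference, and log2 array median differences of -0.22 to -0.052. A lone mouse was taken to vary as the other groups do. With few arrays, dim probes were measured least precisely.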

Other observations

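Some probes lay at 7 intensity units, the floor, or lower on all arrays of one genotype and above it on all arrays of the other. Of the 36092 probes with a value on all arrays, 18 were at the floor in KO in this way and 11 at the floor in WT. None passed the filter on dim probes. Those at the floor in KO reached at most 79.6 intensity units in WT, with a median of mean intensities of 14.1, and those at the floor in WT reached at most 34.2 in KO, with a median of 14.8. These intensities are as deposited. In them the share of probes at the floor was 5.27% to 7.70% per KO array and 5.66% to 5.97% per WT array. Whether this bears on the 18 and 11 was not tested.

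Missing values were about as frequent in both genotypes. Of the 59 probes missing on exactly 1 array, 28 were missing on a KO array and 31 on a WT array, with 21 of these on that of WT-DR replicate 1. A further 5 probes had a value on 1 array only, 3 of them on a KO array, and none of these values exceeded 20.3 intensity units.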
